A study of Oncorhynchus mykiss with 9 samples.

Results

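Nuclear hormone receptor genes were examined in IgM+ B cells of rainbow trout (Oncorhynchus mykiss). Members were chosen by words in the protein description of each gene (vitamin D, retinoid, thyroid hormone, glucocorticoid and estrogen receptors, PPARs, LXR, ROR and the numbered nuclear receptor subfamilies other than subfamily 4) and needed at least 5 reads in at least 1 library. A total of 94 genes of the 31691 that passed the same read minimum met this rule, and another 40 genes with such descriptions stayed under it. One gene, the vitamin D3 receptor B-like gene GSONMG00081045001, was also listed by name, although its description alone made it a member. The members just inside the minimum had a highest count of 5 in any library (an NR2F1-A-like gene, an ROR-beta gene and a retinoid isomerohydrolase gene), and 4 genes just outside it, among them ROR-alpha and an RXR-alpha-A gene, had a highest count of 4. By their descriptions 75 members were receptors in 12 classes. The other 19 were not receptors but carried a receptor's name in their own, as coactivators, thyroid hormone receptor-associated protein 3 or retinoid-regulated enzymes do, and they are described apart.

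Splenic leukocytes from healthy female trout of 50 to 70 g were cultured for 24 h with no antigen (control), with TNP-KLH or with TNP-LPS, and IgM+ cells were then sorted by flow cytometry. TNP is a small hapten, KLH a large mollusc protein that serves as a thymus-dependent antigen, and LPS a bacterial wall component that makes TNP-LPS a thymus-independent antigen. Since the antigens were added to mixed cultures, the B cells were sorted after 24 h in the company of the other splenic cells. The labels give an antigen dose of 5 mg/ml and the study's methods give the same figure in µg/ml. Each condition had 3 libraries, numbered 1 to 3, with library totals of 8080787 to 12164154 counts. The submitters call these biological replicates but do not say that they came from different fish, so the p-values reflect only library-to-library spread, which may be technical. B cell markers were abundant in every library: the summed level of 8 genes for CD79 chains and B cell linker proteins was 2670 to 3380 CPM (counts scaled to the library total) in control libraries, 1900 to 2270 with TNP-KLH and 1600 to 1910 with TNP-LPS. None of these 8 genes was at 0 throughout a group. Of them 4 (both CD79 alpha genes, CD79 beta and 1 B cell linker gene) were themselves lower with TNP-LPS (50%, against 6.73% of all genes).

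Nuclear receptors are transcription factors that are switched by small fat-soluble ligands such as steroids, retinoids, thyroid hormone, fatty acids and sterols. Many of them bind DNA as pairs with a retinoid X receptor, recruiting corepressors when empty and coactivators when a ligand is bound. In mammalian lymphocytes, glucocorticoids, vitamin D and retinoic acid act through their receptors to shape activation, survival and antibody production. Trout carry several copies of most of these genes after genome duplications, and 37 of the receptor members shared 16 descriptions among them. Some of these have neighbouring identifiers. Counts of genes are counts of identifiers, and whether each identifier is a separate gene was not tested. Reads that fit more than one copy cannot be assigned from these counts, and the strand setting of the counting is not given in the sources used here.

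By the member rule each of the 75 receptors had reads in some library, so only their levels are described. The 40 genes with such descriptions that stayed under the minimum are not counted here. At least 1 read was found in all 9 libraries for 56 of the 75 receptors, and 20 receptors had a control mean of 10 CPM or more. Over all 94 members, 26 had a mean level below 1 CPM over the libraries, 39 lay from 1 to below 10 CPM and 29 at 10 CPM or more. In the fit without a block (edgeR) 0 of the 26 weakest members, 6 of 39 and 9 of 29 were called in some comparison. The same numbers were called for TNP-LPS against control, where 10.04% of all genes were higher and 6.73% lower. With the block described below 1 of 26, 16 of 39 and 17 of 29 were called in some comparison. The 1 weak gene was estrogen receptor beta 2, which DESeq2 called as well. Shares over all genes at these levels were not counted, so the counts describe the members only.

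With TNP-LPS 9 receptor genes, most of them for ligand-activated receptors, were lower than in control cells, and 4 genes for PGC-1 beta and its relative PRC were higher. A gene counted as changed when the edgeR quasi-likelihood p, adjusted by Benjamini and Hochberg's method across the 31691 genes, was below 0.05. With TNP-LPS 9 of the 94 members were lower than in control cells (9.57%), where 6.73% of all genes were lower, and 6 members were higher (6.38%), where 10.04% of all genes were higher. As a share of all members the lower calls were slightly more frequent, and the higher calls less frequent, than over all genes, a difference that was not tested. All 9 lower members were receptors, namely 4 retinoic acid receptors, 2 glucocorticoid receptors and 1 gene each for a vitamin D receptor, PPAR beta and NR2F6. Of the 6 higher members 4 were PGC-1 family coactivators and 2 were receptors, NR1D2 and NR2C2. The median log2 fold change was −0.39 over the 75 receptors, 0.24 over the 19 coregulators and other proteins, and −0.09 over all genes tested. Groups did not overlap for 17 members that were lower and 11 that were higher, where 15.2% and 17.4% of all genes did not overlap in these directions.

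**Figure D1:**
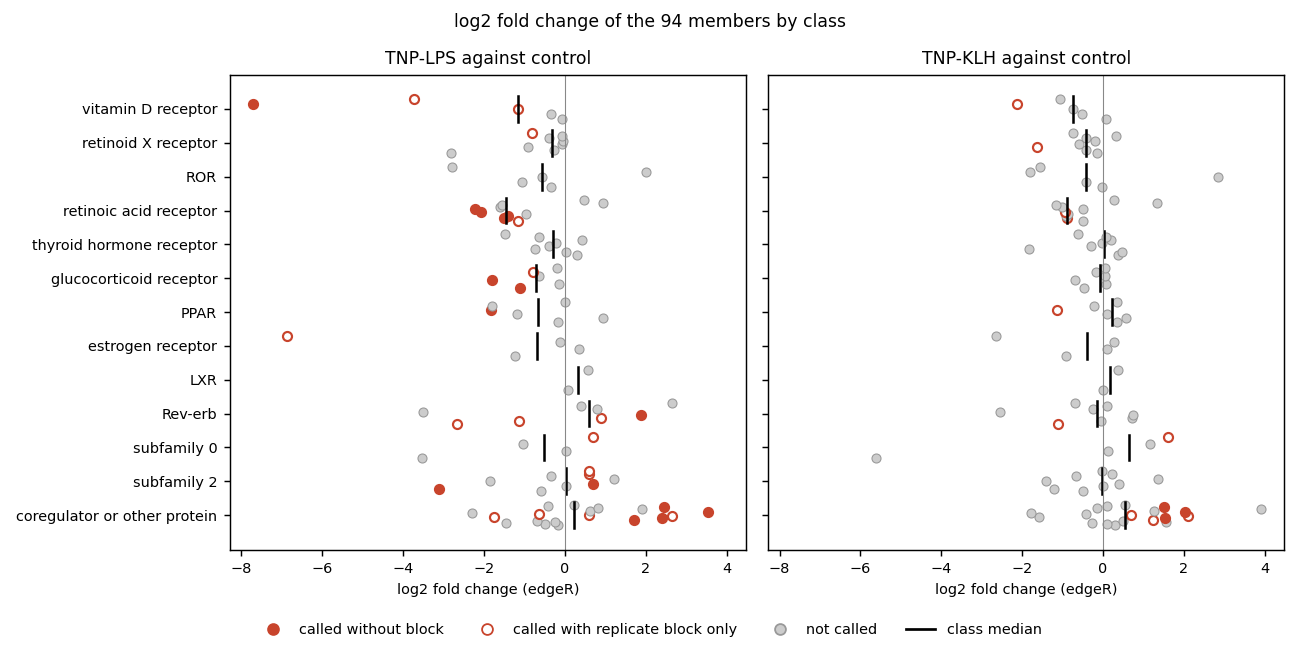
Each point is 1 of the 94 members, placed by its log2 fold change (edgeR) for TNP-LPS against control (left) and TNP-KLH against control (right), with 1 row per class and a black bar at the class median. Filled red points passed in edgeR without the block, open red points passed in edgeR only with the replicate number as a block and grey points passed neither; with TNP-LPS the retinoic acid receptors had the lowest class median, −1.46. The leftmost points, at −7.70 and −6.87, belong to genes with 0 counts in every TNP-LPS library, for which the fitted value is not a bound.

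Libraries with the same number deviated together in all 3 conditions, so a second fit took the number as a block. With the block 19 members were lower and 12 higher with TNP-LPS, where the shares over all genes were 14.2% and 16.3%. DESeq2 called 13 lower and 8 higher, where it called 9.12% and 12.2% of all genes. All 15 calls without the block were also made with the block and with DESeq2, and 10 of the 15 were made without any 1 of the 9 libraries. Without the 3 libraries numbered 2, 8 of the 15 calls were kept. Among the lost calls were retinoic acid receptor alpha-B-like GSONMG00026071001, glucocorticoid receptor GSONMG00020826001 and NR2C2 GSONMG00034212001 (edgeR adjusted p = 0.0601, 0.0594 and 0.159). That fit called 5 receptors lower and none higher, where 763 of 30400 genes were lower and 1743 higher. Not all of these 5 were among the 9 called lower with all libraries. Some markers of other cells differed in this comparison as well. Of 8 thrombocyte markers 4 were lower with TNP-LPS without the block (50%, against 6.73% of all genes). Their summed level was 45.7, 211 and 59.7 CPM in control libraries 1 to 3, 22.9 to 57.2 CPM with TNP-KLH and 21.9 to 28.3 CPM with TNP-LPS. The 19 hemoglobin genes, which mark erythrocytes, summed to 251, 6780 and 93.3 CPM in control cells, 218, 2340 and 38.2 CPM with TNP-KLH and 242, 386 and 29.0 CPM with TNP-LPS, and in edgeR all 19 were lower with the block and none without it. The 5 T cell markers summed to 13.8, 55.3 and 3.11 CPM in control libraries and 9.94, 10.2 and 2.04 CPM with TNP-LPS, and 2 of them were lower with the block. Of 10 cytotoxic cell markers 3 were lower with the block, with sums of 31.2 to 76.8 CPM in control and 14.7 to 42.1 CPM in TNP-LPS libraries, and so was the 1 neutrophil marker, at 2.49 to 18.5 CPM against 0 to 6.06 CPM. No gene of these 5 lists was at 0 throughout a group. Of 14 monocyte and macrophage markers 0 were called with or without the block. Of 27 muscle markers 0 were called without the block and 2 were lower with it, with a median log2 fold change of 1.02. The part of these cells in the receptor results was not tested beyond leaving out the libraries numbered 2. In sorted bulk samples, fewer cells of a type and less RNA per cell cannot be told apart.

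Of the 10 retinoic acid receptor genes 4 were lower with TNP-LPS, where 6.73% of all genes were lower. RAR alpha is held with corepressors on its target genes until all-trans retinoic acid binds. The RAR alpha-A gene GSONMG00002092001 was read at 36.9, 43.5 and 40.1 CPM in control libraries 1 to 3, at 21.9, 18 and 24.7 CPM with TNP-KLH and at 18.2, 6.97 and 17.5 CPM with TNP-LPS. All control libraries lay above all others, and the TNP-LPS library numbered 2 was the lowest. The log2 fold change for TNP-LPS against control was −1.50 (SE 0.33, edgeR adjusted p = 0.0118). The RAR alpha-B-like gene GSONMG00033851001 had 24.2, 17.5 and 29.6 CPM in control cells, 12.0, 11.3 and 14.2 CPM with TNP-KLH and 6.37, 2.53 and 7.98 CPM with TNP-LPS. The 3 conditions did not overlap at all in this gene. It fell with a log2 fold change of −2.08 (SE 0.38, edgeR adjusted p = 0.00511).

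A weaker copy, the RAR alpha-A-like gene GSONMG00035296001, showed 3.24, 5.02 and 4.59 CPM in control cells, 3.38, 3.28 and 2.40 CPM with TNP-KLH and 0.621, 0.739 and 1.30 CPM with TNP-LPS. Here the TNP-KLH libraries overlapped the control libraries and only the TNP-LPS libraries stood apart. Its log2 fold change was −2.23 (SE 0.41, edgeR adjusted p = 0.00504), and without the libraries numbered 2 the adjusted p was 0.0767. The RAR alpha-B-like gene GSONMG00026071001 had 10.6, 4.60 and 8.87 CPM in control cells, 6, 3.19 and 3.60 CPM with TNP-KLH and 3.42, 2.01 and 3.62 CPM with TNP-LPS. Its groups did not overlap between control and TNP-LPS, but the control library numbered 2 was close to the TNP-LPS libraries. This gene fell with a log2 fold change of −1.41 (SE 0.41, edgeR adjusted p = 0.0420), a call made only without control library 2 or TNP-KLH library 1 and lost without any other single library, with adjusted p from 0.0528 to 0.142.

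Other retinoic acid receptor genes gave weaker or no evidence of a difference. The RAR alpha-A gene GSONMG00002091001, whose identifier directly precedes GSONMG00002092001, had 8.53 ± 2.04 CPM in control cells and 3.78 ± 2.19 CPM with TNP-LPS (mean ± SD, n = 3), and it was lower with the block (log2 fold change −1.23, SE 0.31, edgeR adjusted p = 0.00608 with the block and 0.0890 without) and, by a narrow margin, with DESeq2 (adjusted p = 0.0494). The RAR alpha-B-like copy GSONMG00038894001 was read at 0.202, 4.08 and 0.0778 CPM in control cells and at 0.311 to 0.739 CPM with TNP-LPS, so that 1 control library held most of its reads and no call was made (edgeR adjusted p = 0.448). The RAR alpha-A genes GSONMG00033850001 and GSONMG00037209001, both under 2 CPM on average, had log2 fold changes of −0.96 (SE 0.63) and −1.60 (SE 0.71) without a call. The identifier GSONMG00033850001 directly precedes that of the called gene GSONMG00033851001. Both RAR gamma genes had positive values, with log2 fold changes of 0.95 and 0.48 that did not pass the test (edgeR adjusted p = 0.616 and 0.746). Summed over all 10 genes the class stood at 85.2 to 98.9 CPM in control cells, 46.2 to 57.9 CPM with TNP-KLH and 19.9 to 40.4 CPM with TNP-LPS. The sums of the 3 conditions did not overlap, which held for no other receptor class.

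No read of 1 vitamin D receptor gene was found with TNP-LPS. The vitamin D receptor binds calcitriol and pairs with a retinoid X receptor. Reads on the VDR B-like gene GSONMG00081045001 numbered 26, 23 and 37 in control libraries 1 to 3, 4, 3 and 10 with TNP-KLH and 0, 0 and 0 with TNP-LPS. The 3 conditions were fully separated, with TNP-KLH in between. Against a floor of 3 counts over the TNP-LPS group (0.112 CPM) the pooled control level of 2.66 CPM was at least 23.7-fold higher, and the gene was lower with TNP-LPS (edgeR adjusted p = 0.00278). Such floors cover counting error only. With TNP-KLH the level was 0.600 ± 0.432 CPM against 2.64 ± 0.238 CPM in control cells, which in edgeR passed only with the block (log2 fold change −2.25, SE 0.68, edgeR adjusted p = 0.0498 with the block and 0.234 without).

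The neighbouring identifier GSONMG00081046001 carries the same VDR B-like description. It had 67, 0 and 94 reads in control cells, 21, 25 and 20 with TNP-KLH and 3, 3 and 3 with TNP-LPS. The control library numbered 2 had no read although the other control libraries were the highest of all, so control and TNP-LPS overlapped. The gene was lower with TNP-LPS with the block (log2 fold change −3.43, SE 0.92, edgeR adjusted p = 0.00837 with the block and 0.0599 without) and with DESeq2 (adjusted p = 0.00623). Of the 3 VDR A genes, GSONMG00051862001 had 2.63, 5.85 and 11.4 CPM in control cells and 1.24, 3.49 and 4.08 CPM with TNP-LPS, and it was lower with the block alone (log2 fold change −1.09, SE 0.34, edgeR adjusted p = 0.0227 with the block and 0.217 without; DESeq2 adjusted p = 0.165). The VDR A gene GSONMG00021213001 was level, with 3.90 ± 3.08 CPM in control cells and 3.72 ± 2.11 CPM with TNP-LPS (log2 fold change −0.06, SE 0.62).

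Glucocorticoid receptor genes, whose products bind cortisol and restrain many inflammatory genes, were lower in part. The gene GSONMG00020829001 was read at 8.80, 5.85 and 10.4 CPM in control cells, 7.63, 3.28 and 4.69 CPM with TNP-KLH and 2.95, 1.27 and 2.97 CPM with TNP-LPS. Every TNP-LPS library was below every other library. It fell with a log2 fold change of −1.81 (SE 0.44, edgeR adjusted p = 0.0194), and the adjusted p was 0.0597 without control library 3 and 0.0651 without TNP-LPS library 2. A second gene with the same description, GSONMG00020826001, had 17.2, 9.30 and 16.8 CPM in control cells, 12.2, 9.10 and 10.1 CPM with TNP-KLH and 9.01, 5.39 and 5.85 CPM with TNP-LPS. The groups were separated by a narrow margin, between control library 2 and TNP-LPS library 1. Its log2 fold change was −1.11 (SE 0.31, edgeR adjusted p = 0.0346), and the call was lost without control library 1 or 3, TNP-KLH library 3 or TNP-LPS library 2 or 3 (adjusted p 0.0534 to 0.123).

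All 6 glucocorticoid receptor genes had negative log2 fold changes with TNP-LPS, from −1.81 to −0.14, but 4 did not pass the test. Among these, glucocorticoid receptor 2 (GSONMG00046177001) fell from 12.7 ± 3.34 to 7.34 ± 2.17 CPM with the block only (log2 fold change −0.78, SE 0.22, edgeR adjusted p = 0.0111 with the block and 0.0861 without). The gene GSONMG00020827001, whose identifier lies next to that of the second gene above, stood at 7.82 ± 0.753 CPM in control cells and 7.10 ± 0.117 CPM with TNP-LPS, a log2 fold change of −0.14 with an SE of 0.21. The other pair, GSONMG00030758001 and GSONMG00076144001, had log2 fold changes of −0.63 (SE 0.27) and −0.20 (SE 0.28). The summed level of the class was 46.9 to 66.1 CPM in control cells, 46.1 to 53.7 CPM with TNP-KLH and 30.3 to 36.9 CPM with TNP-LPS. TNP-LPS libraries were therefore below all others, while TNP-KLH and control overlapped.

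PPAR beta, also named PPAR delta, senses fatty acids and drives their oxidation, and 1 of the 2 genes described as PPAR beta fell. GSONMG00060652001 had 19.9, 35.3 and 35.4 CPM in control cells, 8.62, 12.0 and 20.8 CPM with TNP-KLH and 5.43, 9.29 and 10.6 CPM with TNP-LPS. The library numbered 1 was the lowest in each condition, and control did not overlap TNP-LPS. The log2 fold change was −1.83 (SE 0.39, edgeR adjusted p = 0.0101), and without the libraries numbered 2 the adjusted p was 0.128. The copy with the same description, GSONMG00081737001, stood at 4.59 ± 0.290 CPM in control cells and 4.60 ± 0.516 CPM with TNP-LPS (log2 fold change 0.00, SE 0.32). The gene described as PPAR delta, GSONMG00028234001, had a positive log2 fold change of 0.95 (SE 0.54) without a call. PPAR alpha and the PPAR gamma pair gave no call either, with log2 fold changes from −1.81 to −0.16.

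NR2F6, an orphan receptor that restrains cytokine genes in mouse T cells, was also lower. The gene GSONMG00010748001 was read at 1.92, 2.51 and 1.63 CPM in control cells, 0.545, 1.27 and 0.763 CPM with TNP-KLH and 0.155, 0.317 and 0.186 CPM with TNP-LPS. The conditions did not overlap in any pairing. Its log2 fold change was −3.11 (SE 0.63, edgeR adjusted p = 0.00840; 0.0533 without the libraries numbered 2). The other 3 NR2F6 genes were not called. Among them GSONMG00023300001 had 8.18 ± 1.91 CPM in control cells and 8.30 ± 1.18 CPM with TNP-LPS, and the log2 fold changes of GSONMG00002138001 and GSONMG00054396001 were −0.60 (SE 0.51) and −0.34 (SE 0.42).

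**Figure D2:**
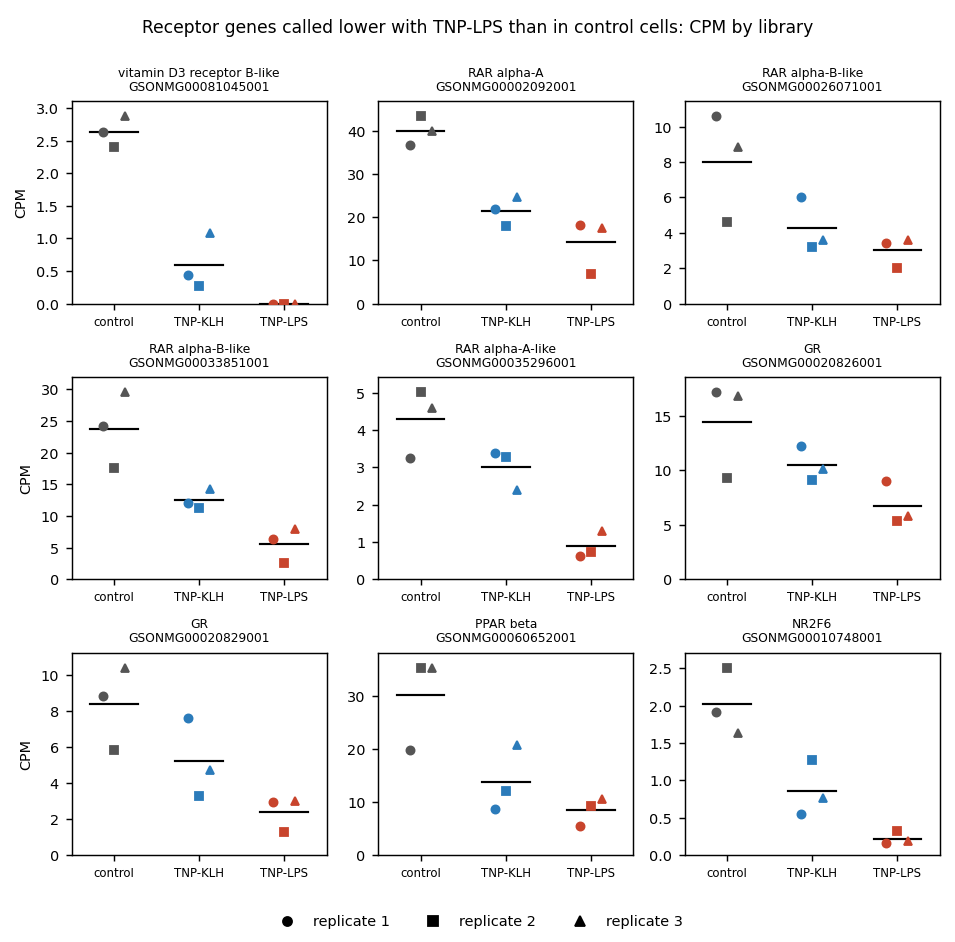
Levels in CPM (vertical axes, linear from 0, each with its own scale) of the 9 receptor genes called lower for TNP-LPS against control, with 1 point per library, the marker shape giving the replicate number and the bar the mean of 3 libraries. In every panel the 3 TNP-LPS points lie below the 3 control points, and the VDR B-like gene is at 0 in all 3 TNP-LPS libraries.

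The strongest increases among the members were in coactivators, proteins that bind activated receptors and recruit the transcription machinery. PGC-1 family members are known for driving mitochondrial gene expression, and PGC-1-related coactivator (PRC) is the member that responds to growth signals in mammalian cells. The PRC gene GSONMG00075158001 was read at 60.5, 45.8 and 71.3 CPM in control cells, 173, 182 and 153 CPM with TNP-KLH and 314, 366 and 284 CPM with TNP-LPS. Its copy GSONMG00019093001 had 28.5, 20.1 and 34.3 CPM, 79.9, 82.8 and 75.5 CPM, and 106, 193 and 137 CPM in the same order. In both genes the conditions were ranked control, TNP-KLH, TNP-LPS without overlap. Log2 fold changes for TNP-LPS against control were 2.44 (SE 0.23, edgeR adjusted p = 2.43e-04) and 2.39 (SE 0.29, edgeR adjusted p = 5.54e-04).

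PGC-1 beta rose alongside PRC. The PGC-1 beta-like gene GSONMG00033950001 had 2.33, 1.88 and 4.36 CPM in control cells, 11.2, 11.9 and 12.4 CPM with TNP-KLH and 19.9, 46.8 and 34.8 CPM with TNP-LPS, again without overlap. Its log2 fold change of 3.55 (SE 0.40, edgeR adjusted p = 4.02e-04) was the largest increase among the 94 members. A PGC-1 beta gene, GSONMG00017628001, had 4.55, 9.30 and 6.38 CPM in control cells, 13.6, 16.4 and 17.6 CPM with TNP-KLH and 15.7, 32.2 and 18.6 CPM with TNP-LPS. Both antigen groups lay above control but overlapped each other, and the log2 fold change for TNP-LPS was 1.72 (SE 0.34, edgeR adjusted p = 0.00708). The remaining PGC-1 beta gene, GSONMG00019661001, had 0.405, 0 and 1.01 CPM in control cells and 3.73, 2.85 and 2.97 CPM with TNP-LPS, and it was higher with the block (log2 fold change 2.91, SE 0.65, edgeR adjusted p = 0.00229 with the block and 0.0583 without) and with DESeq2 (adjusted p = 0.00520). All 4 called coactivator genes were also called without each single library and without the libraries numbered 2.

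PGC-1 alpha, the best known member of that family, did not move in the same direction. Its 3 genes summed to 3.89 ± 2.30 CPM in control cells, 1.53 ± 0.611 CPM with TNP-KLH and 1.15 ± 0.379 CPM with TNP-LPS. The gene GSONMG00019124001 gave most of these reads, with 2.12, 2.40 and 4.82 CPM in control cells and 0.621, 1.27 and 0.836 CPM with TNP-LPS, and it was lower with the block (log2 fold change −1.77, SE 0.53, edgeR adjusted p = 0.0161 with the block and 0.0514 without) and with DESeq2 (adjusted p = 0.0252). The difference between the alpha and beta genes was not tested. Within the 19 coregulators and other proteins, the share of the summed CPM held by the PRC pair was 39.4% in control, 56.7% in TNP-KLH and 70.5% in TNP-LPS libraries.

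Thyroid hormone receptor-associated protein 3, a splicing and Mediator-associated protein, had 5 genes and no call in the first fit. The gene GSONMG00022513001 had 48.9, 42.2 and 32.0 CPM in control cells and 60.6, 68.2 and 57.7 CPM with TNP-LPS, without overlap, and it was higher with the block (log2 fold change 0.62, SE 0.17, edgeR adjusted p = 0.0113 with the block and 0.0752 without) and with DESeq2 (adjusted p = 0.0291). Retinoic acid receptor responder protein 3-like (GSONMG00023633001) had 15.2 ± 2.77 CPM in control cells and 9.70 ± 1.17 CPM with TNP-LPS, and was lower with the block (log2 fold change −0.65, SE 0.22, edgeR adjusted p = 0.0320 with the block and 0.0690 without).

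**Figure D3:**
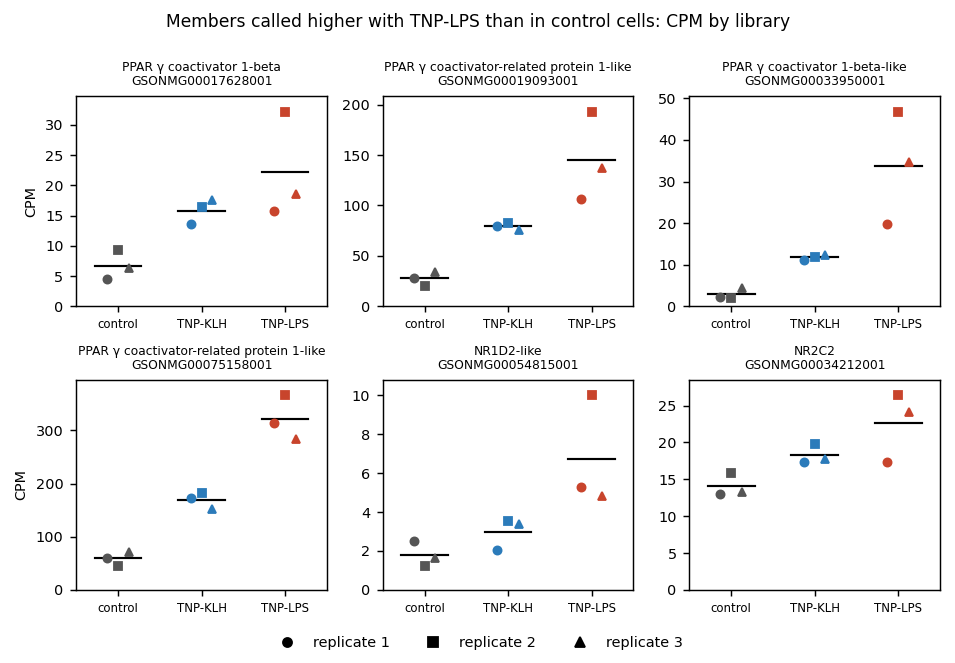
Levels in CPM (vertical axes, linear from 0, each with its own scale) of the 6 members that were higher with TNP-LPS than in control cells, with 1 point per library, shapes for replicate numbers and bars for the mean of 3 libraries. In both PRC genes and the PGC-1 beta-like gene the TNP-KLH points lie between the control and the TNP-LPS points without touching either.

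Orphan receptors of subfamily 2 group C were higher where they passed. TR4 (NR2C2) and TR2 (NR2C1) bind direct repeats shared with retinoid receptors. The NR2C2 gene GSONMG00034212001 had 13, 15.8 and 13.3 CPM in control cells, 17.4, 19.8 and 17.7 CPM with TNP-KLH and 17.4, 26.4 and 24.1 CPM with TNP-LPS. Control lay below both antigen groups, which overlapped each other. The log2 fold change of 0.69 (SE 0.21, edgeR adjusted p = 0.0477) was made without control library 2 or TNP-LPS library 1 and lost without any other single library, with adjusted p from 0.0681 to 0.160. With DESeq2 size factors in place of TMM the adjusted p was 0.0504. Both NR2C1-A-like genes were higher with the block only, GSONMG00076012001 with 17.6 ± 4.66 CPM in control cells and 26.8 ± 3.88 CPM in TNP-LPS libraries (log2 difference 0.61, SE 0.20, edgeR adjusted p = 0.0290 with the block and 0.122 without) and GSONMG00077309001 with 10.5 ± 2.85 and 15.8 ± 0.712 CPM (log2 fold change 0.61, SE 0.21, edgeR adjusted p = 0.0380 with the block and 0.137 without).

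The Rev-erb genes NR1D1 and NR1D2 encode heme-binding repressors of the circadian clock, and their copies moved in both directions. The NR1D2-like gene GSONMG00054815001 had 2.53, 1.25 and 1.63 CPM in control cells, 2.07, 3.55 and 3.38 CPM with TNP-KLH and 5.28, 10 and 4.83 CPM with TNP-LPS. TNP-LPS lay above all other libraries, with the library numbered 2 far the highest. The gene rose with a log2 fold change of 1.89 (SE 0.43, edgeR adjusted p = 0.0137; 0.0644 without TNP-LPS library 2 and 0.134 without all libraries numbered 2). A second NR1D2-like gene, GSONMG00041539001, had 3.64, 6.06 and 6.77 CPM in control cells and 5.90, 11.1 and 13.5 CPM with TNP-LPS, and it was higher with the block only (log2 fold change 0.87, SE 0.24, edgeR adjusted p = 0.00924 with the block and 0.127 without).

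Both well-read NR1D1-like genes had negative log2 fold changes with and without the block, and were called lower with TNP-LPS only with it. GSONMG00026691001 had 11.1, 34.8 and 82.8 CPM in control libraries 1 to 3, 4.14, 13.5 and 42.5 CPM with TNP-KLH and 1.24, 5.91 and 12.9 CPM with TNP-LPS. The conditions overlapped, yet within each number control was the highest and TNP-LPS the lowest. With the block the log2 fold change was −2.73 (SE 0.21, edgeR adjusted p = 1.39e-07), and without it −2.65 (SE 1.00, edgeR adjusted p = 0.105). GSONMG00037804001 had 25.8, 46.1 and 74.5 CPM in control cells, 22.5, 47.3 and 71.5 CPM with TNP-KLH and 13.2, 18.5 and 34.9 CPM with TNP-LPS. It was lower with TNP-LPS with the block (log2 fold change −1.13, SE 0.17, edgeR adjusted p = 8.80e-05 with the block and 0.181 without), and its TNP-KLH values lay close to control within each number.

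Levels of several members differed widely between replicate numbers. A test of the replicate numbers in the fit with the block, added after the data had been seen, called 21 of the 94 members (22.3%), where 17.4% of all genes were called. Of the 8 Rev-erb genes 5 were among them. NR0B2-like (GSONMG00072262001), which encodes SHP, a receptor without a DNA-binding domain that represses other receptors, had 17, 232 and 48 reads in control libraries 1 to 3, 25, 848 and 96 with TNP-KLH and 13, 352 and 88 with TNP-LPS. The library numbered 2 was the highest in every condition (edgeR adjusted p = 6.70e-09 between numbers), and the gene was called higher with the block in the TNP-KLH libraries (log2 fold change 1.42, SE 0.23, edgeR adjusted p = 0.00113 with the block and 0.704 without) and in the TNP-LPS libraries (log2 fold change 0.74, SE 0.24, edgeR adjusted p = 0.0287 with the block and 0.782 without). Both NR1D1-like genes above were highest in number 3 throughout (edgeR adjusted p = 7.30e-08 and 2.56e-05 between numbers). The receptor-associated protein 3-like gene GSONMG00000088001 was highest in number 1, at 28, 30.5 and 27.9 CPM in control, TNP-KLH and TNP-LPS cells against 1.17, 0.654 and 0.464 CPM in number 3 (edgeR adjusted p = 7.72e-08 between numbers). What the numbers stand for is not stated beyond replicate. Hemoglobin sums, given above, were highest in number 2 in every condition. Thrombocyte marker sums were highest in number 2 in control (211 CPM) and TNP-KLH libraries (57.2 CPM), but lowest in number 2 with TNP-LPS (21.9 CPM). These sums were not tested between numbers.

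**Figure D4:**
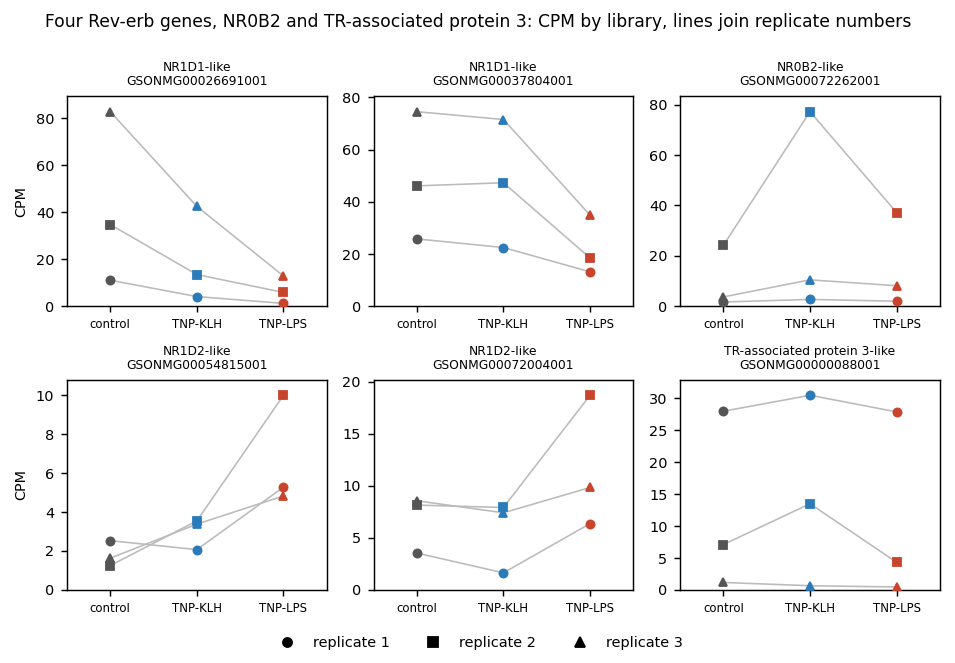
Levels in CPM (vertical axes, linear from 0, each with its own scale) of 4 Rev-erb genes, NR0B2-like and 1 gene for thyroid hormone receptor-associated protein 3, with 1 point per library and grey lines joining libraries of the same number across conditions. In the NR1D1-like panels number 3 is on top and number 1 at the bottom in every condition, in the NR0B2-like panel number 2 reaches 77.2 CPM with TNP-KLH while number 1 stays at 2.73 CPM, and in the NR1D2-like panels the TNP-LPS library numbered 2 is the highest.

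The common partners and several other classes were not called. Retinoid X receptors, which pair with RAR, VDR, PPAR and LXR, had 8 genes with negative log2 fold changes from −2.80 to −0.04 and no call for TNP-LPS. The RXR-beta-A-like gene GSONMG00044696001 stood at 73.0 ± 20.3 CPM in control cells, 55.0 ± 9.79 CPM with TNP-KLH and 55.6 ± 3.12 CPM with TNP-LPS (log2 fold change −0.39, SE 0.24). The RXR-beta-A gene GSONMG00071594001 had 14.7, 12.6 and 9.33 CPM in control cells and 8.23, 5.49 and 7.33 CPM with TNP-LPS, and it was lower with the block only (log2 fold change −0.80, SE 0.24, edgeR adjusted p = 0.0178 with the block and 0.0719 without). The RXR-gamma-A-like gene GSONMG00005504001, with 1.92, 12.4 and 5.45 CPM in control cells and 1.64, 2.46 and 2.29 CPM with TNP-KLH, was lower with TNP-KLH with the block only (log2 fold change −1.41, SE 0.39, edgeR adjusted p = 0.0281 with the block and 0.288 without).

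None of the 8 thyroid hormone receptor genes was called for TNP-LPS with edgeR, where the lowest adjusted p was 0.274 without the block and 0.158 with it. The thyroid hormone receptor beta gene GSONMG00041538001 had 13.6 ± 3.08 CPM in control cells, 13.4 ± 4.03 CPM with TNP-KLH and 11.7 ± 2.51 CPM with TNP-LPS. The LXR-alpha gene GSONMG00014026001, a sensor of oxidized cholesterol, stood at 13.7 ± 4.69, 13.6 ± 1.13 and 14.4 ± 2.85 CPM in the same order, with a log2 fold change of 0.08 (SE 0.28) for TNP-LPS. The ROR-beta-like gene GSONMG00013881001, of a family that activates clock genes, had 9.31 ± 0.356 CPM in control cells and 7.36 ± 1.13 CPM with TNP-LPS, without overlap but without a call (edgeR adjusted p = 0.335). NR0B1-like (GSONMG00046605001), which encodes the repressor DAX1, was level at 23.0 ± 2.80, 24.9 ± 2.63 and 23.4 ± 3.18 CPM.

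Estrogen receptor beta 1 (GSONMG00076525001) was close to level, with 14.2 ± 2.77 CPM in control cells, 17.1 ± 0.453 CPM with TNP-KLH and 13 ± 1.86 CPM with TNP-LPS. Estrogen receptor beta 2 (GSONMG00076653001) had 7, 36 and 0 reads in control cells, 1, 6 and 0 with TNP-KLH and 0, 0 and 0 with TNP-LPS. Most of its reads came from the control library numbered 2, which was also the library richest in hemoglobin reads. Against the floor of 3 counts over the TNP-LPS group the pooled control level was at least 11.8-fold higher, and the gene was lower with the block (edgeR adjusted p = 0.0132 with the block and 0.106 without) and with DESeq2 (adjusted p = 0.0293).

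With TNP-KLH only coactivators were called in the edgeR fit without the block. Compared with the same 3 control libraries, 3 of the 94 members were higher (3.19%), where 0.760% of all genes were higher, and 0 were lower, where 0.117% of all genes were lower. These were both PRC genes, with log2 fold changes of 1.52 (SE 0.22, edgeR adjusted p = 0.0321) for GSONMG00075158001 and 1.52 (SE 0.28, edgeR adjusted p = 0.0449) for GSONMG00019093001, and the PGC-1 beta-like gene GSONMG00033950001 with 2.04 (SE 0.38, edgeR adjusted p = 0.0470). All 3 were higher in 3 of 3 TNP-KLH libraries than in any control library. Each call was lost when any library other than TNP-LPS library 1 was left out (adjusted p up to 0.162), and without the libraries numbered 2 the adjusted p was 0.434 to 0.438. Without the block edgeR called no receptor, although 16 members had an unadjusted p under 0.05. DESeq2, which gave 40 of the 94 members no adjusted p in this comparison, called 5 members higher, none of them a receptor, and 0 lower, where it called 3.18% and 1.32% of all genes.

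With the block 7 members were higher and 6 lower with TNP-KLH, where 6.05% and 4.23% of all genes were called. The 6 lower were all receptors: PPAR beta GSONMG00060652001 (log2 fold change −1.17, SE 0.20, edgeR adjusted p = 0.00132), NR1D1-like GSONMG00026691001 (−1.22, SE 0.19, edgeR adjusted p = 7.01e-04), RAR alpha-B-like GSONMG00033851001 (−0.89, SE 0.23, edgeR adjusted p = 0.0190), RAR alpha-A GSONMG00002092001 (−0.93, SE 0.24, edgeR adjusted p = 0.0192), and the VDR B-like and RXR-gamma-A-like genes given above. Of these, 5 were also lower with TNP-LPS in the same fit. The 7 higher were the 4 coactivator genes called with TNP-LPS, the third PGC-1 beta gene, a gene for receptor-associated protein 3 (GSONMG00022513001, log2 fold change 0.72, SE 0.17, edgeR adjusted p = 0.0133) and NR0B2-like.

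Between the antigens no member was called in the first fit, where the shares over all genes were 2.12% for higher and 0.745% for lower values in the TNP-LPS libraries. At an unadjusted p under 0.05 there were 13 members, and DESeq2, with no adjusted p for 36 members, called 3 higher and 2 lower, where it called 5.02% and 2.30% of all genes. With the block 4 members were higher and 8 lower, where 8.49% and 5.94% of all genes were called. The higher members were both PRC genes (log2 fold changes 0.93 and 0.86, edgeR adjusted p = 0.00463 and 0.0169), the PGC-1 beta-like gene GSONMG00033950001 (1.46, SE 0.26, edgeR adjusted p = 0.00120) and the NR1D2-like gene GSONMG00072004001 (1.11, SE 0.29, edgeR adjusted p = 0.0148). The lower members were RAR alpha-B-like GSONMG00033851001 (−1.24, SE 0.25, edgeR adjusted p = 0.00292), RAR alpha-A-like GSONMG00035296001 (−1.74, SE 0.45, edgeR adjusted p = 0.0137), glucocorticoid receptor GSONMG00020829001 (−1.12, SE 0.31, edgeR adjusted p = 0.0235), PPAR beta GSONMG00060652001 (−0.69, SE 0.21, edgeR adjusted p = 0.0369), both NR1D1-like genes (edgeR adjusted p = 3.00e-04 and 7.17e-04), the VDR B-like gene GSONMG00081045001 (edgeR adjusted p = 0.0172) and a gene for retinoid-inducible serine carboxypeptidase (edgeR adjusted p = 0.0350).

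Summed by class, levels with TNP-LPS lay below control without overlap in the retinoic acid, glucocorticoid, PPAR, ROR and estrogen receptor classes and above it in subfamily 2 (ratio of means 1.30) and in the coregulators and other proteins (ratio 3.00). In the estrogen receptor class the margin was narrow, with 16.8 CPM in control library 2 and 16.4 CPM in TNP-LPS library 2. Estrogen receptor beta 2 gave 3.76 CPM of that control sum, and the most abundant gene of the class, estrogen receptor beta 1, overlapped. The sum of all receptors overlapped (ratio 0.73). The 6 PPAR genes summed to 32.5 to 49.2 CPM in control cells and 16.9 to 24.0 CPM with TNP-LPS, without overlap. The retinoid X receptors summed to 149 ± 32.7 CPM, 109 ± 17.3 CPM and 118 ± 12.2 CPM in control, TNP-KLH and TNP-LPS cells, with overlap between all conditions. The 19 coregulators and other proteins summed to 189 to 265 CPM, 380 to 475 CPM and 582 to 776 CPM in the same order, so that no condition overlapped another. Of this the PRC pair held 65.9 to 106 CPM, 228 to 265 CPM and 420 to 559 CPM. The 5 genes for thyroid hormone receptor-associated protein 3 held 56.6 to 142 CPM, 96.0 to 168 CPM and 84.8 to 144 CPM, with overlap. Class sums are dominated by the most abundant genes of each class and were not tested.

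**Figure D5:**
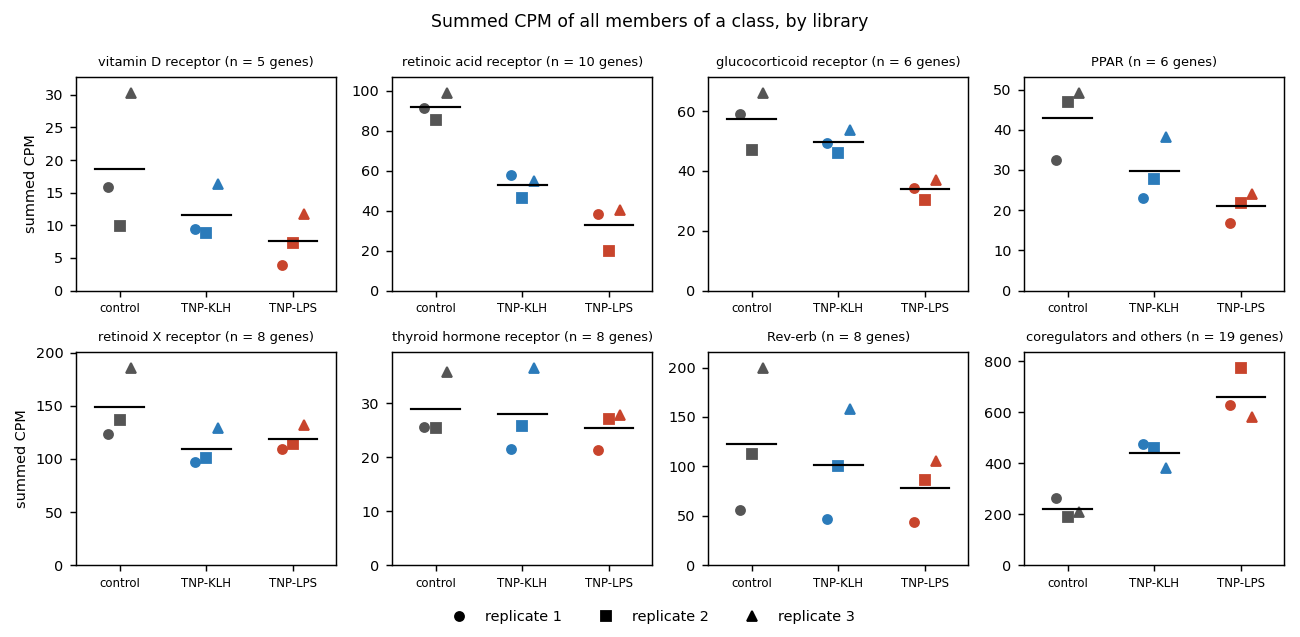
Summed CPM (vertical axes, linear from 0, each with its own scale) of all members of 7 receptor classes and of the coregulators and other proteins, with 1 point per library, shapes for replicate numbers and bars for the mean of 3 libraries. The retinoic acid receptor sums separate the 3 conditions in descending order (91.8, 53.0 and 32.9 CPM on average), the coregulator sums separate them in ascending order (220, 439 and 662 CPM), and the retinoid X and thyroid hormone receptor sums overlap. Of the coregulator sums the PRC pair holds 86.8, 249 and 467 CPM on average.

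Genes downstream of these receptors, and others tied to their ligands or coregulators, were counted from lists set by words in the descriptions. In the list of glucocorticoid targets and steroid enzymes, 6 of 20 genes were lower (30%, against 6.73% of all genes) and 1 higher (5%, against 10.04%) with TNP-LPS (median log2 fold change −1.13, against −0.09 over all genes). Of the lower genes 4 were copies of 17-beta-hydroxysteroid dehydrogenase 14, an enzyme that oxidizes estradiol in mammals. The 30% is therefore not a share for glucocorticoid targets alone. Among the 4 copies GSONMG00041498001 fell from 13.5 ± 2.02 to 2.69 ± 1.27 CPM (log2 fold change −2.31, SE 0.36, edgeR adjusted p = 0.00194). FKBP5 is a chaperone that lowers the hormone affinity of the glucocorticoid receptor and is itself a glucocorticoid target in mammals, and its copies split. GSONMG00070007001 rose from 19.2 ± 7.24 to 59.3 ± 13.5 CPM (log2 fold change 1.63, SE 0.33, edgeR adjusted p = 0.00786), whereas GSONMG00046743001 fell from 7.84 ± 3.90 to 2.32 ± 1.14 CPM (log2 fold change −1.74, SE 0.49, edgeR adjusted p = 0.0370).

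In the list of LXR targets and sterol efflux genes, 5 of 18 were lower with TNP-LPS (27.8%, against 6.73% of all genes), and LXR-alpha itself was not called. Description words set this list too, so the 27.8% is not a share for LXR targets alone. The 5 lower genes were MYLIP, which degrades the LDL receptor, 3 genes for the cholesterol exporter ABCA1 and an apolipoprotein Eb gene. MYLIP (GSONMG00056542001) fell from 5.23 ± 1.61 to 0.662 ± 0.158 CPM (log2 fold change −2.95, SE 0.49, edgeR adjusted p = 0.00302). With the block 5 of the 18 were lower and 2 higher, where 14.2% and 16.3% of all genes were called. The 18 genes summed to 55, 57.4 and 72.7 CPM in control libraries and 33.9, 41.8 and 83.2 CPM with TNP-LPS, with overlap. Of 26 genes that the description words placed in the list of PPAR targets, 1 was higher and 2 lower (3.85% and 7.69%). This is below and near the 10.04% and 6.73% of all genes. Whether each gene of this list is a PPAR target in trout was not tested. Carnitine palmitoyltransferase 1 (GSONMG00062800001), which admits fatty acids to mitochondria, rose from 26.3 ± 5.22 to 49.1 ± 7.38 CPM (log2 fold change 0.90, SE 0.21, edgeR adjusted p = 0.0169), and pyruvate dehydrogenase kinase 3 (GSONMG00027187001) fell from 11.1 ± 1.21 to 4.45 ± 1.25 CPM (log2 fold change −1.31, SE 0.26, edgeR adjusted p = 0.00797). Heart fatty acid-binding protein was the other gene to fall, with 15.9, 33.2 and 0.778 CPM in control cells and 0.186 to 0.932 CPM with TNP-LPS.

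Clock genes, the best known targets of Rev-erb and ROR, were higher in 5 and lower in 2 of 36 cases (13.9% and 5.56%), near the 10.04% and 6.73% of all genes. Cryptochrome-1-like (GSONMG00068349001) had 7.03 ± 2.01 CPM in control cells, 7.18 ± 0.856 CPM with TNP-KLH and 27.2 ± 5.63 CPM in TNP-LPS libraries (log2 difference 1.95, SE 0.27, edgeR adjusted p = 0.00116), and a period 1 gene, a pair of period 2 genes and BHLHE40 rose as well. Another cryptochrome-1-like gene fell. BMAL1 (ARNTL, GSONMG00057430001), the activator that Rev-erb represses in mammals, fell from 16.2 ± 3.78 to 8.08 ± 2.69 CPM (log2 fold change −1.01, SE 0.28, edgeR adjusted p = 0.0368). Retinoid metabolism had 2 of 37 genes higher (5.41%), the retinol dehydrogenases 11-like and 13, and vitamin D metabolism 0 of 4 called in either fit.

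Of 55 coregulator genes, 8 of which are members, TNP-LPS raised 10 (18.2%, against 10.04% of all genes) and lowered 3 (5.45%, against 6.73%). The 10 include the 4 coactivator members described above, so the 18.2% partly repeats their calls. It is not a share for coregulators outside the members, which was not calculated. Outside the PGC-1 family the higher genes were 3 copies of nuclear receptor corepressor 2 and nuclear receptor coactivators 4, 5 and 6, and the lower genes were coactivators 2 and 7 and proline-rich coactivator 2. The corepressor 2-like gene GSONMG00073655001 rose from 11.5 ± 3.92 to 27.4 ± 3.48 CPM (log2 fold change 1.25, SE 0.27, edgeR adjusted p = 0.0109), and coactivator 2-like (GSONMG00079778001) fell from 37.3 ± 5.82 to 19.2 ± 1.45 CPM (log2 fold change −0.96, SE 0.23, edgeR adjusted p = 0.0180). Among 20 nuclear receptors that the rule left out, 1 was higher and 1 lower (5% each, against 10.04% and 6.73% of all genes). ERR1 (GSONMG00069380001), a partner of PGC-1 coactivators in mammals, rose from 9.68 ± 3.45 to 22.5 ± 4.98 CPM (log2 fold change 1.21, SE 0.29, edgeR adjusted p = 0.0174). NR4A1 (GSONMG00073863001) fell from 271 ± 150 to 96.7 ± 46.8 CPM (log2 fold change −1.49, SE 0.45, edgeR adjusted p = 0.0471).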

How the data were processed

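RNA from 9 samples of sorted IgM+ B cells (3 per condition) was sequenced by the authors as stranded libraries with reads of 50 nt. The deposited values are raw counts per gene, which the authors made with TopHat (minimum intron length 50) on the Genoscope trout genome, SAMtools and HTSeq, whose versions and strand setting the sources used here do not give. Other deposited columns hold the authors' DESeq means, fold changes and p-values, and were not used. The same counts stand in all 3 deposited tables. Gene names are the protein descriptions in those tables, and a RefSeq table matched 0 of 46585 identifiers, so neither positions nor sequences are given.

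The 31691 genes that reached 5 reads in some library were tested with edgeR 4.0.16 (R 4.3.3) by glmQLFit and glmQLFTest with TMM factors (0.797 to 1.10), all 9 libraries in 1 fit of 3 groups, and Benjamini-Hochberg adjustment at 0.05. The common biological coefficient of variation was 0.446. Levels are CPM with TMM factors, errors are SD over 3 libraries, and SE belongs to log2 fold changes. This SE is the absolute log2 fold change divided by the square root of the edgeR F statistic, and is not an output of the fit. Within-group pairs of libraries differed by 23.2 to 70.2 chi-square per gene, so none was a copy. The script was tested on simulated data. Figures were drawn with matplotlib 3.10.9 (Python 3.11.15).

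Whether replicate numbers pair the libraries was checked on deviations from the group means. Correlations ran from 0.227 to 0.646 in the 9 same-number pairs, against −0.499 to 0.0345 in the other 18, so the numbers were taken as a block in a second fit. This pairing comes from the data.

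Alternatives were DESeq2 1.42.0, its size factors in edgeR, no low-count filter, a mean count of at least 10, only the 2 groups compared, and leaving out single libraries or those numbered 2. The count of receptors only and the test between numbers were added after the data had been seen. Members and gene lists were chosen with earlier results of these data known. One description word that sets a responder protein apart from receptors was added once the descriptions had been seen. Named were members called in any comparison, those called with the block only at 5 CPM or more in some group, the most abundant gene of each class, genes sharing a called receptor's description, and up to 4 called genes per list. The VDR B-like gene with reads absent in TNP-LPS cells was always named. The other members named with values were added to account for their class after their values had been seen.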

Additional observations from a re-analysis of the deposited data

How the results depend on the processing

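With the replicate number as a block, members higher and lower numbered 12 and 19 for TNP-LPS against control (6 and 9 without), 7 and 6 for TNP-KLH against control (3 and 0) and 4 and 8 for TNP-LPS against TNP-KLH (0 and 0); no call of the fit without the block was lost. Counting receptors only left 2 higher with TNP-LPS and 0 higher with TNP-KLH. DESeq2 called 5 higher with TNP-KLH, and 3 higher and 2 lower between the antigens. Between the antigens, 1 member was higher with no low-count filter, and 1 was higher and 2 lower with a mean count of at least 10. Over all genes, 600 of 38022 were higher with no low-count filter, and 758 of 24639 higher and 277 lower with the mean count filter. That filter moved the median log2 fold change to −0.19 for TNP-LPS against control (−0.34 over all 94 members) and to −0.20 between the antigens (−0.32). With only the 2 groups compared, and likewise without the libraries numbered 2, 0 members and 0 of all genes tested were higher with TNP-KLH. Without the libraries numbered 2, 5 were lower with TNP-LPS, where 763 of 30400 genes were lower, and the median between the antigens was −0.21. Not all of these 5 were among the 9 called lower with all libraries. Leaving out 1 library at a time gave 4 to 7 higher and 6 to 10 lower with TNP-LPS (median −0.34 to −0.10), 0 to 3 higher with TNP-KLH (median −0.19 to 0.12) and 0 to 1 lower between the antigens (median −0.38 to −0.21). Over all genes, the same fits called 2411 to 2915 higher and 1243 to 1885 lower with TNP-LPS. They called 0 to 303 genes higher with TNP-KLH and 0 to 271 lower between the antigens. Apart from the filters and smaller sets of samples, which change what is tested, the causes were not tested. No call reversed under these alternatives. Of the values of single named members, 1694 kept their side of the threshold, 64 lost a call and 55 gained one. The 1694 include values called in neither fit. Only the 15 calls with TNP-LPS and the 3 with TNP-KLH could be lost, so the 1694 do not measure how stable these calls were. Of the 15 calls 10, and of the 3 calls 0, were made without any 1 of the 9 libraries. Of 26 members below 1 CPM, 1 was called with the block and with DESeq2 and 0 without the block; the part of depth in this was not tested. DESeq2 gave no adjusted p to 11, 40 and 36 members in the 3 comparisons.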
